A study of Mus musculus with 9 samples.

Results

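The ion exchangers and cotransporters described here are the genes of the solute carrier families Slc4, Slc8, Slc9, Slc12 and Slc26. They were chosen as the protein-coding genes of the deposited table whose symbol begins with one of these family names followed by a member number. The rule used no expression value, although it was set with earlier results of these data known. It gave 46 genes of 38087 in the table, 22571 of which were protein-coding. The products of 43 are carriers, and those of the other 3, *Slc9a3r1*, *Slc9a3r2* and *Slc4a1ap*, are adaptor or binding proteins that share only the start of the symbol.

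The colons came from male C57BL/6 mice, 10 to 12 weeks old, which all had colitis induced by dextran sulfate sodium (DSS) in the drinking water. One day before collection the mice had received human adipose tissue-derived mesenchymal stem cells (AD-MSC), human umbilical cord tissue-derived mesenchymal stem cells (UC-MSC) or just phosphate-buffered saline without cells (Control) into a vein. There were 3 libraries of medial colon in each of the 3 groups, 9 in all, and mice without colitis were not analysed here. The cells were human and the recipients were mice, and the tissue was bulk colon, so that fewer cells of a type and less RNA per cell cannot be told apart.

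The table held 1 mean per gene and group and no value of a single library. Levels below are therefore group means in normalized reads, that is, reads divided by a library size factor. The mean was taken over log2 values, so each level is a geometric mean, which a single low library can pull down strongly. A difference is the log2 difference of 2 group means. No spread between mice, no test and no p-value could be computed, and no difference has a replicate check. The error given with a difference is the smallest counting error, a lower limit that the read depth sets and that leaves out the variation between mice. Where 3 levels are given in a row without group names, their order is Control, AD-MSC, UC-MSC. Genes were compared when they averaged at least 10 normalized reads over the 3 groups, which held for 15040 genes and for 30 of the 46 members.

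Ion exchangers swap one ion for another across a membrane, and cotransporters move several ions together, both driven by ion gradients across it. In the colon, surface cells take up salt and water by pairing sodium-proton exchange, chiefly through NHE3 (*Slc9a3*), with chloride-bicarbonate exchange through DRA (*Slc26a3*). Crypt cells secrete chloride that NKCC1 (*Slc12a2*) loads from the blood side, and bicarbonate carriers of the Slc4 family set the pH of the cell and feed bicarbonate secretion. Sodium-calcium exchangers of the Slc8 family export calcium from muscle and nerve cells. Loss of DRA causes chloride diarrhoea in humans, and a fall of NHE3 activity is a known feature of colitis.

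Because reads rise with transcript length, levels of different genes were set side by side per kilobase of merged exons. On this scale *Slc26a3* was the most abundant member in Control, at 922 normalized reads per kb. It was followed by the adaptor gene *Slc9a3r1* at 548 and by the sulfate transporter gene *Slc26a2* at 514. *Slc9a3* had 183 per kb, the bicarbonate cotransporter gene *Slc4a7* 154, *Slc12a2* 103 and *Slc9a2* 95.1. Not corrected for length, *Slc26a2* and *Slc26a3* together dominated the set, with 26.7% and 24.7% of all normalized reads of the 46 members in Control. AD-MSC had shares of 28.5% and 22.2%, and UC-MSC had 23.1% and 23.4%.

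**Figure D1:**
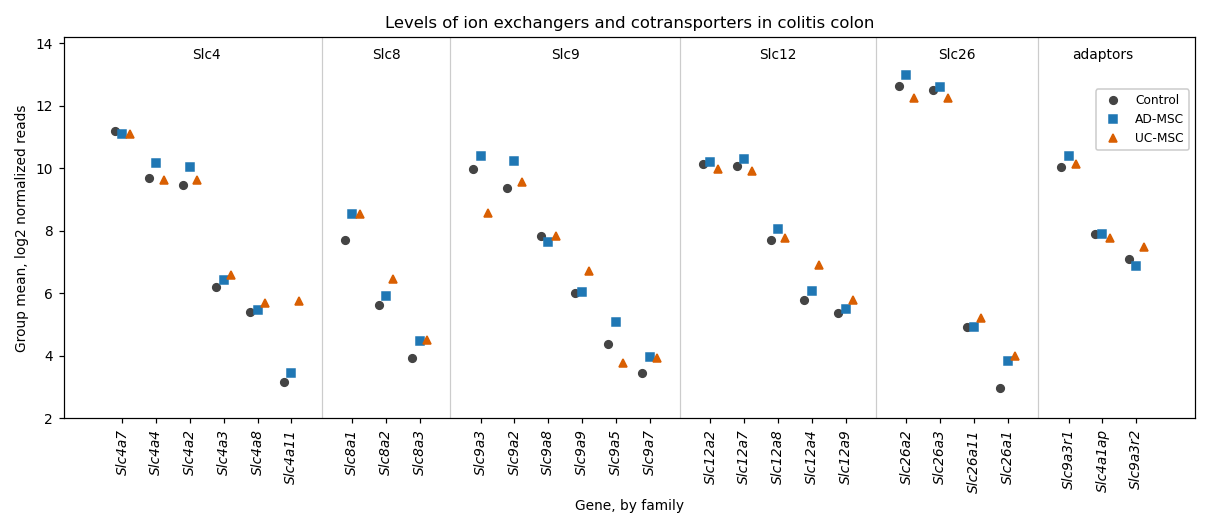
Levels of 27 of the 30 members compared, by family, as group means of log2 normalized reads (1 point per group, no error bars because no library values were used). *Slc26a2* and *Slc26a3* lie highest, *Slc9a3* has its lowest point in UC-MSC, and *Slc4a11* lies far higher in UC-MSC than in the other groups.

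Members tended to have higher values in AD-MSC than in Control, by small amounts. Of 30 members, 24 had higher and 6 lower values, with a median log2 difference of 0.28, while over all genes compared 49.0% were higher and the median was -0.01. No member differed by 2-fold, a size reached upwards by 1.76% and downwards by 2.04% of all genes. *Slc9a2*, *Slc26a1*, *Slc8a1*, *Slc9a5* and *Slc4a2* were at least 1.5-fold higher, 5 of 30, where 6.71% of all genes were. No member was 1.5-fold lower, where 6.67% of all genes were.

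UC-MSC differences from Control ran from -1.41 to 2.58 on the log2 scale over the 30 members. The counts of members below are small and are not read as a trait of the set. *Slc4a11*, *Slc12a4* and *Slc26a1* were at least 2-fold higher, 3 of 30 beside 4.98% of all genes, and *Slc9a3* was at least 2-fold lower, 1 of 30 beside 2.74%. The Control levels of *Slc4a11* and *Slc26a1*, 8.94 and 7.90, were under the minimum, which these genes passed through the other groups. At 1.5-fold, 6 members were higher and 2 lower, where 14.3% and 10.1% of all genes were, which added *Slc8a1*, *Slc8a2* and *Slc9a9* above Control and *Slc9a5* below it. The median log2 difference was 0.16 over the members and -0.02 over all genes. With groups scaled to equal totals of normalized reads, every UC-MSC difference from Control fell by 0.13 and every AD-MSC difference by 0.03, which put the medians of all genes at -0.15 and -0.04. Higher UC-MSC values were then found for 16 of the 30 members in place of 20. The share of all genes with higher values likewise moved, from 48.2% to 37.1%. *Slc12a4* at 0.997 and *Slc26a1* at 0.88 on the log2 scale no longer reached 2-fold. This left *Slc4a11* alone above 2-fold, beside 3.35% of all genes. The split of all 2-fold calls between UC-MSC and Control moved from 64.5% to 45.7% higher with this scaling.

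Against AD-MSC, 13 members had higher and 17 lower values in UC-MSC, where 48.8% of all genes had higher values. The median log2 difference was -0.02 over the members and -0.01 over all genes. *Slc4a11* was at least 2-fold higher, 1 of 30 beside 4.43% of all genes, and *Slc9a3* and *Slc9a5* were at least 2-fold lower, 2 of 30 beside 2.32%. At 1.5-fold, 4 members were higher and 4 lower, where 12.2% and 7.58% of all genes were, which added *Slc12a4*, *Slc9a9* and *Slc9a3r2* above AD-MSC and *Slc26a2* and *Slc9a2* below it. With equal totals, the share of all 2-fold calls that were higher moved from 65.6% to 53.4%. Both comparisons with Control use the same Control mean, so their values are given side by side and no likeness between them is read as a result.

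**Figure D2:**
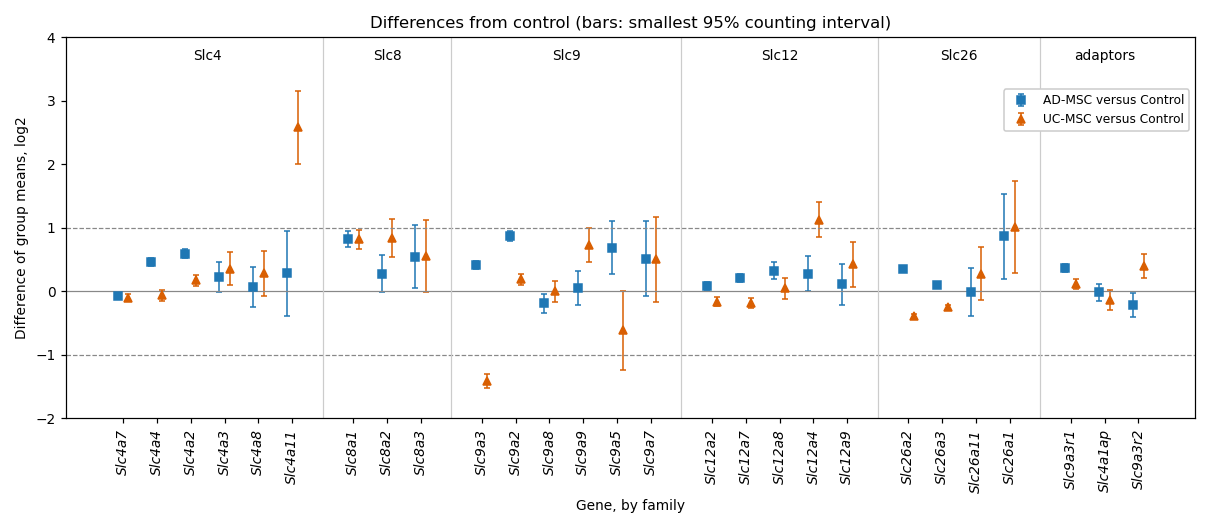
Log2 differences of AD-MSC and UC-MSC group means from Control for the same 27 members, by family. Bars span the 95% interval of the smallest counting error, which leaves out variation between mice, and dashed lines mark 2-fold. In UC-MSC *Slc4a11* at 2.58, *Slc12a4* at 1.13 and *Slc26a1* at 1.02 lie above the lines, the last 2 not reaching them with equal totals, and *Slc9a3* at -1.41 lies beneath them, while all AD-MSC points shown lie within.

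The 8 sodium-proton exchangers compared had a median log2 difference of 0.24 for AD-MSC and of 0.07 for UC-MSC, the latter -0.06 with equal totals. *Slc9a3*, the apical exchanger NHE3 (chromosome 13, 74121515 to 74166064, GRCm38/mm10), had 1008, 1346 and 380 normalized reads. The UC-MSC level was thus the lowest of the 3 and the AD-MSC level the highest. *Slc9a3* was 2.65-fold lower in UC-MSC than in Control (log2 difference -1.41, error 0.056) and 3.54-fold lower than in AD-MSC (-1.82, error 0.054). AD-MSC lay 1.34-fold above Control (0.42, error 0.032). Markers of colonocytes, the absorptive cells that carry NHE3, had a median of -0.01 in UC-MSC, with 6 of 12 higher and 6 lower. With equal totals 3 were higher and 9 lower. Of all genes, 48.2% were higher in UC-MSC, or 37.1% with equal totals. The summed levels of these markers were 89079, 86729 and 92856. Within this marker list *Cdx2*, the intestinal identity factor, was at -0.89 and the butyrate transporter gene *Slc5a8* at -0.76 in UC-MSC, while the differentiation keratin *Krt20* was at 0.71. Their part in the *Slc9a3* value was not tested.

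*Slc9a2*, which encodes the second apical exchanger NHE2 (chromosome 1, 40681712 to 40768885), had another order of groups. Its levels were 664, 1216 and 757. AD-MSC was 1.83-fold above Control (log2 difference 0.87, error 0.037) and UC-MSC was 1.14-fold above Control. Per kb, the ratio of *Slc9a3* to *Slc9a2* was 1.92, 1.40 and 0.638, so that NHE2 reads per kb exceeded NHE3 reads per kb in UC-MSC alone among the groups.

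Of the organellar exchangers, *Slc9a9* acts in endosomes, and *Slc9a7* and *Slc9a8* in the Golgi. *Slc9a8* had 226, 198 and 227 normalized reads, nearly level between Control and UC-MSC. *Slc9a9* had 64.1, 66.4 and 106, which put UC-MSC 1.65-fold above Control (log2 difference 0.72, error 0.14). *Slc9a7* had 10.9, 15.5 and 15.4. *Slc9a5*, an exchanger best known from neurons, had 20.9, 33.6 and 13.7, and its UC-MSC level was 2.46-fold below AD-MSC (-1.30, error 0.30), at low depth. With 10 normalized reads added to each level this difference was -0.88, under 2-fold.

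The 2 partners of salt absorption, *Slc9a3* and *Slc26a3*, both had their lowest level in UC-MSC, by different amounts. The 250 bases upstream of their RefSeq start sites (GRCm38.p6) are shown because these stretches differ in makeup. A link between these sequences and the levels was not tested. Capitals mark matches to the motifs searched on both strands, which were the GC box GGGCGG, the TATA box TATAAA, the HNF4 element CAAAGGTCA and the HNF1 element, which is GTTAAT, any base and then ATTAA. *Slc9a3* is read from chr13:74121163-74121412, plus strand, which ends before the gene start of 74121515 in the table. *Slc26a3* is read from chr12:31437969-31438218, plus strand, inside the span that the table gives to that gene. The bases that follow the *Slc26a3* stretch were found in a GENCODE M21 transcript of the gene, and those that follow the *Slc9a3* stretch were not, so that its start site is less certain.

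Slc9a3: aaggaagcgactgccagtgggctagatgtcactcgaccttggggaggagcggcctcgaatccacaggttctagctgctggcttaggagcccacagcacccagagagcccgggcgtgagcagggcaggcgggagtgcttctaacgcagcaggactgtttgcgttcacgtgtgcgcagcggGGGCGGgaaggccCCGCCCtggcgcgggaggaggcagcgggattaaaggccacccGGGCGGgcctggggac

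Slc26a3: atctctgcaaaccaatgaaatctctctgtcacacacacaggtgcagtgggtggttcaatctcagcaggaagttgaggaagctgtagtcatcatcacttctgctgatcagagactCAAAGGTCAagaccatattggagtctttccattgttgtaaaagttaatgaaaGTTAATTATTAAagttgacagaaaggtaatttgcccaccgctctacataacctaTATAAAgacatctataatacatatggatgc

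The *Slc9a3* stretch was 67.6% G or C and held 3 GC boxes and none of the other motifs. The *Slc26a3* stretch was 38.8% G or C and held 1 TATA box, 1 HNF4 element and 1 HNF1 element and no GC box. Over 32851 RefSeq promoters, 32.7% held a GC box, 12.4% a TATA box, 0.426% an HNF4 element and 0.0609% an HNF1 element, and their median content of G and C was 52.4%. HNF4 and HNF1 are transcription factors of gut and liver epithelium. Of the 46 members, 33 had a promoter in the RefSeq table, and *Slc9a2* and *Slc4a11* had none there. A motif match describes the letters alone and shows no binding.

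*Slc26a3*, the chloride-bicarbonate exchanger DRA of the colonocyte surface (chromosome 12, 31390871 to 31473917), had 5871, 6271 and 4924 normalized reads. The groups lay close together, with UC-MSC 1.19-fold below Control (log2 difference -0.25, error 0.017) and AD-MSC 1.07-fold above it (0.10, error 0.014). Per kb, the ratio of *Slc9a3* to *Slc26a3* was 0.199, 0.248 and 0.0894, lowest in UC-MSC. The 4 Slc26 members compared had a median of 0.22 for AD-MSC and of 0.01 for UC-MSC, the latter -0.12 with equal totals.

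*Slc26a2*, a sulfate transporter needed for sulfation of mucins and cartilage (chromosome 18, 61192919 to 61211612), had 6363, 8074 and 4851 normalized reads. It was 1.27-fold higher in AD-MSC (log2 difference 0.34, error 0.013) and 1.31-fold lower in UC-MSC (-0.39, error 0.017) than in Control, so that UC-MSC lay 1.66-fold below AD-MSC. Markers of goblet cells, which make mucin, had medians of 0.19 for AD-MSC and 0.09 for UC-MSC, the latter -0.04 with equal totals, and *Muc2* had 17012, 29464 and 21137 normalized reads. *Slc26a1*, another sulfate transporter, was near the limit of comparison with 7.90, 14.4 and 16.0, or 2.02-fold higher in UC-MSC than in Control (1.02, error 0.37). With 10 normalized reads added the difference was 0.54, under 2-fold. Its exons overlap those of *Idua* on the other strand. *Slc26a11* had 30.5, 30.3 and 37.1.

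Among the bicarbonate carriers, the 6 compared had medians of 0.25 for AD-MSC and 0.23 for UC-MSC, and *Slc4a11* had the greatest difference of the 30 members. *Slc4a11*, a relative of these carriers best known from the corneal endothelium (chromosome 2, 130684113 to 130697519), had 8.94, 10.9 and 53.6 normalized reads. Control and AD-MSC lay together and UC-MSC far above both. With Control under the minimum of 10 and AD-MSC just above it, the place of *Slc4a11* among the members compared rests largely on UC-MSC. The UC-MSC level was 5.99-fold above Control (log2 difference 2.58, error 0.29) and 4.93-fold above AD-MSC (2.30, error 0.26). With 10 normalized reads added to each level, the log2 differences were 1.75 and 1.61. All 3 libraries of each group had reads, and how evenly the reads were shared among them is not known. Of 6 pancreas markers, 3 were compared, and *Pnliprp2* and *Ctrb1* reached the minimum only through UC-MSC. Their higher values there were thus fixed by the filter, and no counting error could be given for either. The median log2 difference of 3.52 from Control was that of *Pnliprp2* and is no measure of the list. *Cela1*, the third, was at 0.41. *Pnliprp2*, a pancreatic lipase relative, had 5.19, 5.22 and 59.4 normalized reads, and *Ctrb1*, chymotrypsinogen, had 1.69, the floor of 1, and 40.0. The summed levels of the 6 were 963, 657 and 1414, mostly from the elastase gene *Cela1* at 952, 647 and 1262. *Cel*, *Prss2* and *Cpa1* reached at most 1.76 in Control and AD-MSC and had 13.3 to 23.7 in UC-MSC. The part of these genes in the *Slc4a11* value was not tested.

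The abundant Slc4 members differed by less. *Slc4a7*, the electroneutral sodium-bicarbonate cotransporter NBCn1, had 2342, 2222 and 2184 normalized reads and was nearly level across groups. *Slc4a4*, the electrogenic cotransporter NBCe1 of the basolateral membrane, had 834, 1150 and 797, or 1.38-fold higher in AD-MSC than in Control (log2 difference 0.46, error 0.035). *Slc4a2*, the basolateral anion exchanger AE2, had 705, 1063 and 796, or 1.51-fold higher in AD-MSC (0.59, error 0.037) and 1.13-fold higher in UC-MSC. For *Slc4a4* and *Slc4a2*, AD-MSC was the highest group. *Slc4a3*, an anion exchanger of heart and brain, had 74.6, 87.1 and 95.6, and *Slc4a8*, a sodium-driven chloride-bicarbonate exchanger, had 42.4, 44.5 and 51.6. The exons of *Slc4a2* overlap those of *Fastk* on the other strand, and the use of strand in counting is unknown. Exons of *Slc8a1*, *Slc12a4* and *Slc4a1ap* likewise overlap a gene on the other strand.

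The cation-chloride cotransporters included 1 member that stood apart. *Slc12a4*, the potassium-chloride cotransporter KCC1 (chromosome 8, 105943590 to 105966115), had 55.4, 67.2 and 121 normalized reads. It was 2.19-fold higher in UC-MSC than in Control (log2 difference 1.13, error 0.14) and lay above AD-MSC by 0.85 (error 0.13). Its relative *Slc12a7* (KCC4) had 1084, 1249 and 958, and per kb the ratio of *Slc12a4* to *Slc12a7* was 0.151, 0.159 and 0.375. Fibroblast markers were also higher in UC-MSC, all 7 of them, with a median of 1.05 and summed levels of 8506, 9779 and 18294. Of macrophage and neutrophil markers 6 of 7 were higher, with a median of 0.97 and summed levels of 1439, 1179 and 2279. Their part in the *Slc12a4* value was not tested.

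*Slc12a2*, the sodium-potassium-chloride cotransporter NKCC1 that loads chloride for secretion (chromosome 18, 57878678 to 57946821), had 1126, 1188 and 1006 normalized reads. Its differences from Control were 0.08 for AD-MSC and -0.16 for UC-MSC (errors 0.032 and 0.039). *Slc12a8* had 211, 265 and 218, with AD-MSC highest. *Slc12a9* had 41.5, 44.8 and 55.7. All 6 members compared lay above Control in AD-MSC, with a median log2 difference of 0.24. In UC-MSC 4 of 6 lay above Control, or 2 of 6 with equal totals, beside 48.2% and 37.1% of all genes. *Slc12a8*, at 0.05 before, was among those that changed sign with equal totals.

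All 3 sodium-calcium exchangers had higher values than Control in both cell-treated groups. *Slc8a1*, NCX1, the exchanger of heart and smooth muscle (chromosome 17, 81388691 to 81649607), had 210, 372 and 370 normalized reads. The cell-treated groups were level with each other, 1.77-fold (log2 difference 0.83, error 0.066) and 1.76-fold (0.82, error 0.074) above Control. *Slc8a2*, NCX2, found mainly in brain, had 49.4, 60.0 and 88.3, so that UC-MSC lay 1.79-fold above Control (0.84, error 0.15) and AD-MSC 1.21-fold (0.28, error 0.15). *Slc8a3*, NCX3 of skeletal muscle and brain, had 15.4, 22.4 and 22.6, with differences of 0.54 and 0.55 (errors 0.25 and 0.29). With equal totals all 3 kept higher values in both groups.

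Smooth muscle markers had a median of 0.06 for AD-MSC and 0.65 for UC-MSC, with all 8 higher in each, or 7 of 8 in AD-MSC with equal totals, and summed levels of 66702, 76756 and 105043. *Myh11*, the smooth muscle myosin heavy chain, was at 0.28 and 0.64. Enteric neuron and glia markers had medians of 0.13 and 0.54. In AD-MSC *Slc8a1* at 0.83 therefore lay above each of these medians and above *Myh11*, and in UC-MSC it lay closer to them. A list of 9 genes of calcium pumps and further exchangers, not all of which export calcium from the cell, had medians of 0.10 and 0.16. The latter was 0.02 with equal totals. Plasma membrane pumps are the other exit route for calcium, and their genes *Atp2b4* and *Atp2b2* were at 0.25 and 0.68 and at 1.01 and 0.12. Marker and pump values are given as measured, and their part in the Slc8 values was not tested.

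Of the adaptor genes, *Slc9a3r1* (NHERF1), which anchors NHE3 and DRA beneath the apical membrane, had 1056, 1358 and 1141 normalized reads. Its UC-MSC difference of 0.11 changed sign with equal totals. *Slc9a3r2* (NHERF2) had 136, 117 and 180, which put UC-MSC 1.54-fold above AD-MSC (log2 difference 0.62, error 0.10). *Slc4a1ap*, named for its binding to the red cell exchanger, had 241, 239 and 220. None of the 3 lay below Control in UC-MSC by more than 0.14 on the log2 scale, where *Slc9a3* lay at -1.41.

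The 16 remaining members had means under 10 normalized reads and were not compared. *Slc12a5*, the neuronal cotransporter KCC2, had 11.2, 10.4 and 6.66 normalized reads. *Slc26a6*, a chloride-oxalate exchanger of the small intestine, had 9.63, 3.91 and 13.5. *Slc26a7* had 10.4, 5.01 and 1.41, with reads in 2 of 3 AD-MSC libraries. The other 13, each with a mean under 5, ranged from the floor of the table, 1 normalized read, to 5.77 normalized reads. Among them were *Slc12a1* and *Slc12a3*, the diuretic-sensitive carriers of the kidney, *Slc26a5*, prestin of the inner ear, *Slc9a4* of the stomach, and *Slc4a1*, band 3 of red cells. *Slc4a1* had 1.41, 1.85 and 1.41 while the globin gene *Hba-a1* had 122, 51.4 and 109.

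Both *Slc26a3* and *Slc9a2* have a member under the minimum as a neighbour in the genome. *Slc26a4*, pendrin, ends 45.9 kb from *Slc26a3* on chromosome 12 and had 1.85, 3.84 and 3.04 normalized reads. *Slc9a4* lies 51.0 kb from *Slc9a2* on chromosome 1 and had 1.12, 1.44 and 2.39.

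Partner genes of the carriers were counted from lists. Among 9 sodium and anion channel genes compared, *Cftr*, the apical chloride channel of crypt cells, had 807, 934 and 264 normalized reads, or 3.06-fold lower in UC-MSC than in Control (log2 difference -1.61, error 0.067). Its group order was that of *Slc9a3*, and also of *Slc26a3*, *Slc26a2*, *Slc12a2* and *Slc4a4* among other genes. *Clca4a* (listed as *Clca6*) had 1038, 840 and 2005. Of the sodium channel genes, *Scnn1a* had 1173, 1130 and 1161, *Scnn1b* 20.6, 36.3 and 25.99 and *Scnn1g* 6.09, 9.90 and 15.0. The list had medians of 0.11 for AD-MSC and 0.01 for UC-MSC, the latter -0.12 with equal totals. In UC-MSC 1 gene, *Scnn1g*, was at least 2-fold higher and 1, *Cftr*, lower, beside 4.98% and 2.74% of all genes. With Control and AD-MSC both under the minimum, *Scnn1g* was compared only through UC-MSC. Its higher value there (error 0.41) is thus not read as a result.

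Of 5 potassium channel genes compared, 4 were lower in UC-MSC than in Control, while 48.2% of all genes were higher there, with a median of -0.78, against -0.02 in AD-MSC. *Kcne3*, the subunit that keeps the basolateral channel *Kcnq1* open, had 759, 436 and 233 normalized reads, and *Kcnq1* itself had 171, 168 and 93.0. *Kcnn4*, a calcium-activated channel, had 186, 162 and 108, and *Kcnk5* was at -0.07 (error 0.082). *Kcnma1*, the large-conductance channel that smooth muscle also uses, lay the other way with 398, 445 and 725, a log2 difference of 0.87. *Atp12a*, the colonic proton-potassium pump, was lowest in AD-MSC, with 7297, 2343 and 4222, or 3.11-fold below Control in that group (log2 difference -1.64, error 0.018).

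**Figure D3:**
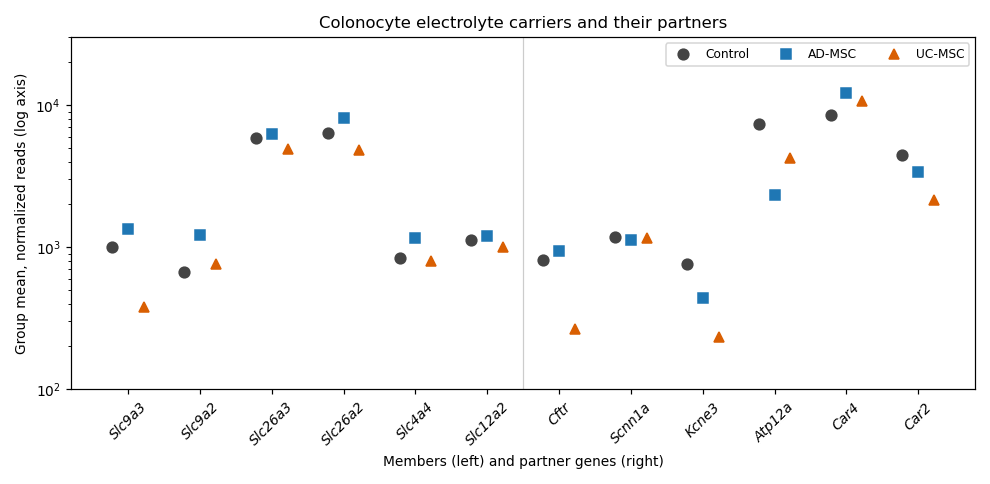
Group means of 6 members and 6 partner genes in normalized reads on a log axis (1 point per group). *Slc9a3* and *Cftr* have their lowest values in UC-MSC, *Slc9a2* its highest in AD-MSC and *Atp12a* its lowest in AD-MSC, while *Scnn1a* and *Slc12a2* are nearly level.

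Carbonic anhydrases, which supply the bicarbonate and protons that the exchangers carry, lay in both directions. Of 9 compared, 1 was at least 2-fold higher and 1 lower in AD-MSC, where 1.76% and 2.04% of all genes were. In UC-MSC 2 were higher and 2 lower, where 4.98% and 2.74% of all genes were, and *Car8* no longer reached 2-fold with equal totals, at 0.93. *Car4*, on the apical surface, had 8454, 12056 and 10625 normalized reads, and *Car2*, in the cytosol, had 4477, 3394 and 2130, or 2.10-fold lower in UC-MSC (log2 difference -1.07, error 0.024). *Car12* was at 1.14 in UC-MSC and *Car8*, an inactive relative, at 1.16 for AD-MSC and 1.06 for UC-MSC. *Car3* was at -1.59 and -2.02, and it is an enzyme of fat and muscle. Adipocyte and mesothelium markers were lower beside it, with medians of -1.46 and -1.99.

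Kinases and adaptors that control the carriers had medians of -0.09 for AD-MSC and -0.04 for UC-MSC over 16 genes. *Sgk1*, a kinase induced by aldosterone and cell stress that raises NHE3 and sodium channel activity, had 424, 720 and 349 normalized reads. *Pdzd3*, a PDZ adaptor that binds the guanylin receptor, had 49.2, 43.3 and 21.7, and was the 1 gene of the list at least 2-fold lower in UC-MSC than in Control, where 2.74% of all genes were. *Sgk2*, a relative of *Sgk1*, had 300, 265 and 455, and *Wnk2*, of the kinases that switch NKCC1 and the KCC proteins in opposite ways, had 104, 117 and 169. In the cGMP pathway *Prkg2*, the kinase that acts on NHE3 and the chloride channel in the gut, was 3.18-fold higher in AD-MSC and 2.19-fold higher in UC-MSC than in Control, from 10.8 normalized reads, and its UC-MSC difference of 1.13 was 0.998 with equal totals, just under 2-fold.

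**Figure D4:**
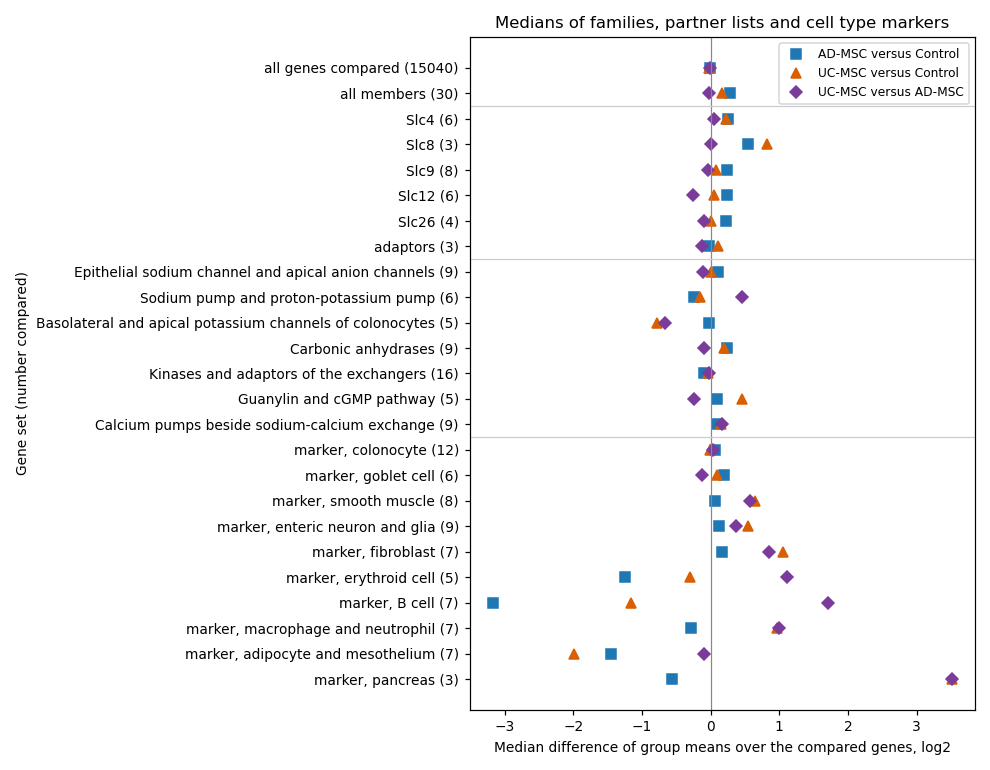
Median log2 difference of group means for all genes compared, for the members and their families, for partner lists and for cell type markers, with the number of genes compared in parentheses. Against Control the Slc8 family lies at 0.54 and 0.82, and in both of these comparisons markers of B cells, adipocytes and pancreas lie farther from 0 than any family. The pancreas median in UC-MSC is that of *Pnliprp2*, which reached the minimum only through that group.

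Facts of the whole series touch all of these values. The summed geometric group means of raw reads were 7295598, 8222017 and 5034908, so that UC-MSC was the shallowest. B cell markers had medians of -3.17 for AD-MSC and -1.15 for UC-MSC, with all 7 lower in each, and macrophage and neutrophil markers had medians of -0.28 and 0.97. Their part in the members' values was not tested.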

How the data were processed

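Total RNA of medial colon was sequenced as stranded total RNA libraries with single-end reads, and samples with an RNA integrity number under 7 had been left out. The authors mapped the reads to mouse GRCm38/mm10 and summarised them in Strand NGS, and the submitters' notes name bcl2fastq 1.8.4. Which aligner was used, and whether counting used strand, was not given in the sources used here. The deposited table held 2 values per gene and group, a raw signal and a mean log2 normalized read value made by the authors. The latter had a floor at 1 normalized read. The raw signal behaved as a geometric mean of raw reads over those libraries of the group that had reads.

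Among genes above 50 raw reads, at least 99.79% in each group had the same gap, within 0.001, from log2 of the raw mean to the normalized log2 mean. Departures from that gap gave the size factors and the number of libraries with reads. All 30 members compared had reads in every library.

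The test on single libraries that the design allowed for could not be run, because columns of single libraries were not in the table analysed here. Log2 group means were subtracted, and the smallest counting error was the square root of the summed 1/(3 × raw reads) of both groups, on the log2 scale. Exon lengths and overlaps came from GENCODE M21 (GRCm38), in which all 46 members were found, 7 of them with exons that overlap another gene. Members averaging 200 normalized reads or more, or with a difference of at least 1.5-fold, are given with all group values, and up to 4 genes of each partner list, those with the greatest difference in any comparison. Other genes given with values, such as *Scnn1a*, *Car4*, *Kcnk5* and the less abundant members, and the choice among marker genes, were named after their values were seen. Some members and partner genes are in the counts and medians but are not reported here by name. The members and lists were chosen with earlier results of these data known. The steps were tested on simulated data. Python 3.11.15, numpy 2.4.6, pandas 2.3.3 and matplotlib 3.10.9 were used.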

Additional observations from a re-analysis of the deposited data

How the results depend on the processing

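Each count and median was recomputed with no minimum, a minimum mean of 50, a pseudocount of 10 normalized reads, equal totals, the median of all genes at 0, only genes with reads in every library, and without the 3 adaptor genes. With no minimum, members 2-fold higher and lower in AD-MSC than in Control numbered 1 and 2 of 46, beside 3.61% and 3.44% of all genes, and the median was 0.10. The same setting gave 3 members lower in UC-MSC than in Control (4.3% of all genes), and against AD-MSC it gave 3 higher and 4 lower in UC-MSC (4.92% and 4.09%). With a minimum of 50, 1 of 22 members was higher in UC-MSC than in Control (2.89% of all genes), and between UC-MSC and AD-MSC 0 were higher and 1 was lower in UC-MSC (2.48% and 1.19%), at a median of -0.18. The pseudocount left 1 member lower in UC-MSC than in AD-MSC (0.957% of all genes), without *Slc9a5*, and 2 higher in UC-MSC than in Control (2.37%), without *Slc26a1*. Equal totals left 1 higher in UC-MSC than in Control (3.35%). The filters change which members are compared, and the other causes were not tested. *Slc9a3* lay at least 2-fold lower in UC-MSC than in Control under every setting run. *Slc4a11* lay at least 2-fold higher under every setting that kept it, the minimum of 50 not being one. Settings that only filter genes leave the difference of a gene unchanged, so just the scalings and the pseudocount could alter these values. None of the settings bears on variation between mice. No paired analysis was possible because the table held 1 mean per group. For the same reason no library could be left out in turn, and no value was tested for a sample far from the others. Depth limits the low members most, with counting errors of at least 0.29 for *Slc4a11* and 0.37 for *Slc26a1* in UC-MSC against Control.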
